A study of Citrus trifoliata with 2 samples.

Results

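FLOWERING LOCUS T (FT) and FD are the partners of the florigen complex, and each was matched by 1 unigene in bud transcriptomes of an early-flowering trifoliate orange and its wild type. Unigenes are assembled transcript models with no genome position. The members were all unigenes whose best Swiss-Prot hit was the Arabidopsis entry FT_ARATH or FD_ARATH, which gave 2 of the 35775 unigenes in the table. The 2 groups were the mutant, labelled precocious trifoliate orange, and the wild type, labelled normal trifoliate orange (Citrus trifoliata). Both came from untreated trees 2 years old, and the RNA was taken at flower initiation, after self-pruning (the shedding of the shoot tip), from terminal buds of spring shoots together with the next 5 buds below. Poly(A) RNA gave 1 library per group, with, in units of 1000 reads, 10037 on unigenes in the mutant and 9995 in the wild type. The sources used here do not give the gene or allele that differs in the mutant, or how many trees supplied the buds.

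In Arabidopsis, FT is made in leaf phloem companion cells and moves through the sieve tubes to the shoot apex. There it binds the bZIP transcription factor FD through 14-3-3 proteins, and the complex switches on floral meristem genes such as APETALA 1 (AP1) and FRUITFULL. In citrus and other woody plants, transgenic expression of FT is known to bring on early flowering.

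The FT transcript was more abundant in the mutant library and the FD transcript was at nearly the same level in both. FT (Unigene27861_All) is 691 bases long, and its best hit had an E-value of 2e-69. It was counted 43 times in the mutant and 12 times in the wild type. Scaled to length and library total (RPKM, reads scaled to the kilobases of the unigene and to the library total), its level was 6.20 RPKM in the mutant (exact 95% Poisson interval 4.49 to 8.35) and 1.74 RPKM in the wild type (0.898 to 3.04). These intervals do not overlap. From the raw reads, the FT level in the mutant was 3.57 times that in the wild type (exact 95% Clopper-Pearson interval 1.85 to 7.43). Against the 200 unigenes nearest to it in number, most of which also leaned toward the mutant, it was 2.17 times. That value mixes 2 measures, as set out with the unigene numbering below. All intervals cover counting error only. Since each group is a single library, no test across trees can be made, and nothing here separates the genotypes from the particular trees, buds or libraries.

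FD (Unigene12556_All) is 1081 bases long with an E-value of 2e-34. It was counted 81 times in the mutant and 79 times in the wild type. Its level was 7.47 RPKM in the mutant (5.93 to 9.28) and 7.31 RPKM in the wild type (5.79 to 9.11). The fold was 1.02, with an interval of 0.740 to 1.41, so counting error alone leaves room for differences of up to 1.41-fold toward the mutant or 1.35-fold toward the wild type. These buds are mixtures of cell types, and fewer cells of a type cannot be told apart from less RNA per cell.

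**Figure D1:**
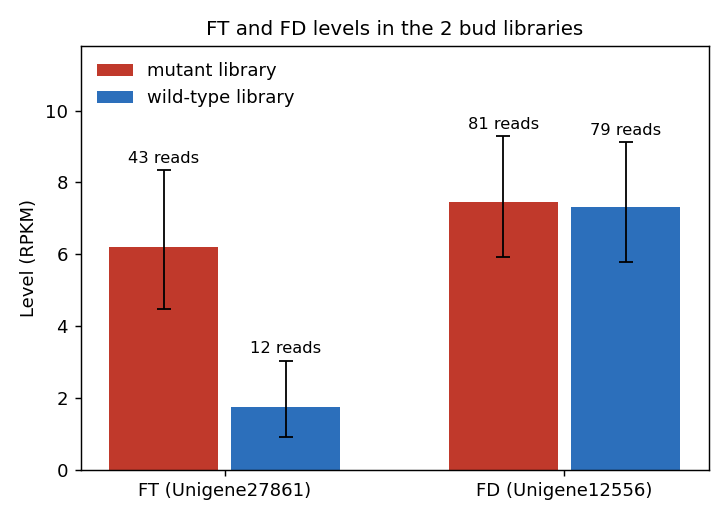
Level of FT and FD in RPKM in the mutant (red) and wild-type (blue) library, 1 library each; error bars are exact 95% Poisson intervals of the read counts, which are printed above them. FT stands at 6.20 RPKM against 1.74, while FD stands at 7.47 against 7.31.

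The ratio of FT to FD transcript reads differed between the 2 libraries. Protein levels of the partners were not measured. For each FD read, the mutant held 0.531 FT reads and the wild type 0.152. The ratio of these values was 3.49, and the exact interval of the conditional odds ratio ran from 1.65 to 7.80. Library scaling cancels in this comparison, but differences along the unigene numbering, described below, do not. The neighbours of FT in number leaned toward the mutant and those of FD did not. Relative to their neighbours, the folds were 2.17 for FT and 1.04 for FD. The interval covers counting error only, with 1 library per group. On the length-scaled RPKM level, FT stood at 83.0% of FD in the mutant and at 23.8% of FD in the wild type. Among the 34255 unigenes with an RPKM of at least 1 in at least 1 library, called kept from here on, FT was at percentile 48.8 of level in the mutant library and at percentile 15.9 in the wild type. FD was at percentiles 52.7 and 54.1, close to the median level of a kept unigene in both, which was 6.54 RPKM in the mutant and 5.93 RPKM in the wild type.

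A difference of this size was not rare in these libraries. For counts over many unigenes the measure was log2((mutant RPKM + 1) / (wild-type RPKM + 1)), which understates differences at low levels. It was 1.40 for FT and 0.03 for FD. A log2 ratio of at least 1, a 2-fold difference, toward the mutant was found for 8.61% of kept unigenes, and 5.31% were at least 2-fold higher in the wild type. A ratio as high as that of FT or higher was found for 1273 kept unigenes, 3.72% of all. Of the 7103 kept unigenes with 30 to 99 reads over both libraries, the depth range that holds FT, 710 (10%) were 2-fold higher in the mutant. Percentile 95 of the ratio in that range was 1.25, below FT. From 100 up to 300 reads, the range that holds FD, 4.64% were 2-fold higher in the mutant, and the middle 50% of ratios ran from −0.20 to 0.42. A counting interval lying wholly above 1, as for FT, was found for 19.8% of kept unigenes.

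**Figure D2:**
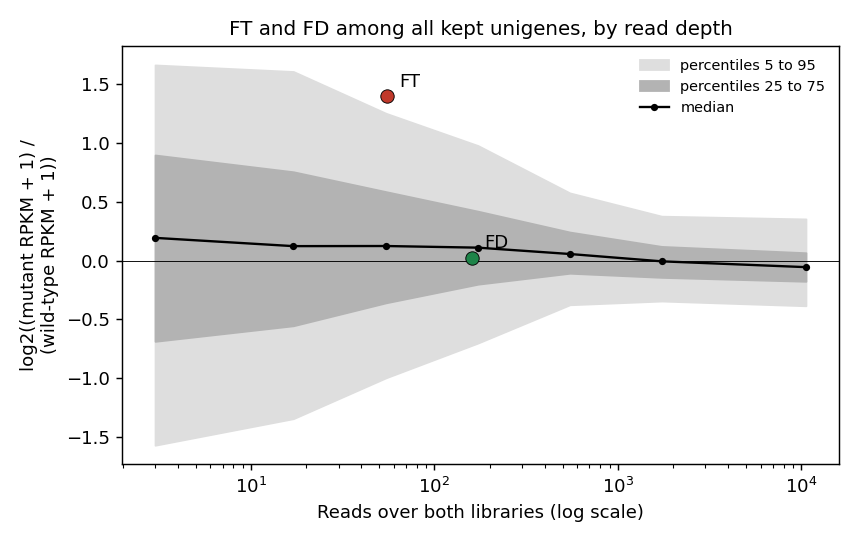
log2 ratio of mutant to wild-type RPKM (pseudocount 1) against reads over both libraries (log scale); the black line is the median of kept unigenes in 7 ranges of depth and the grey bands are their percentiles 25 to 75 and 5 to 95. FT at 1.40 lies above percentile 95 of its range (1.25), and FD at 0.03 lies inside the middle band.

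Ratios differed between ranges of the unigene numbering. The median log2 ratio of kept unigenes was 0.03 for numbers below 18000, 0.65 from 18000 up to 28000 and −0.55 for numbers from 28000 upward. These ranges were drawn after the ratios had been seen. FT lies in the second range, near its end. The 200 unigenes nearest to FT in number, from 27759 to 27967, included 195 kept ones. Their median log2 ratio was 0.72, and 179 were above 0. Of these, 60 (30.8%) exceeded 2-fold toward the mutant and 1 (0.513%) was 2-fold lower. A ratio as high as that of FT or higher was found for 26 of the 195, or 13.3%. Relative to the median of these neighbours, the mutant level of FT was 2.17 times the wild-type level (1.12 to 4.52), which is 1.65 times less than the fold from library totals. This value and its interval mix 2 measures, the FT fold from raw reads and a neighbour median taken with the pseudocount. They may therefore overstate the excess of FT over its neighbours. With the pseudocount on both sides, the fold was 2.63 for FT and 1.65 for the neighbour median. The part of the numbering pattern in the FT result was not tested. FD lies in the first range, where the 200 nearest unigenes had a median ratio of −0.03, and the mutant exceeded the wild type 2-fold in 4 of them (2%) and the reverse in 0 (0%). Its fold relative to them, computed in the same way, was 1.04 (0.754 to 1.44). Within ±500 numbers, 23.9% of 887 kept unigenes were 2-fold higher around FT, in a window that crosses number 28000, and 1.1% of 1000 around FD.

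**Figure D3:**
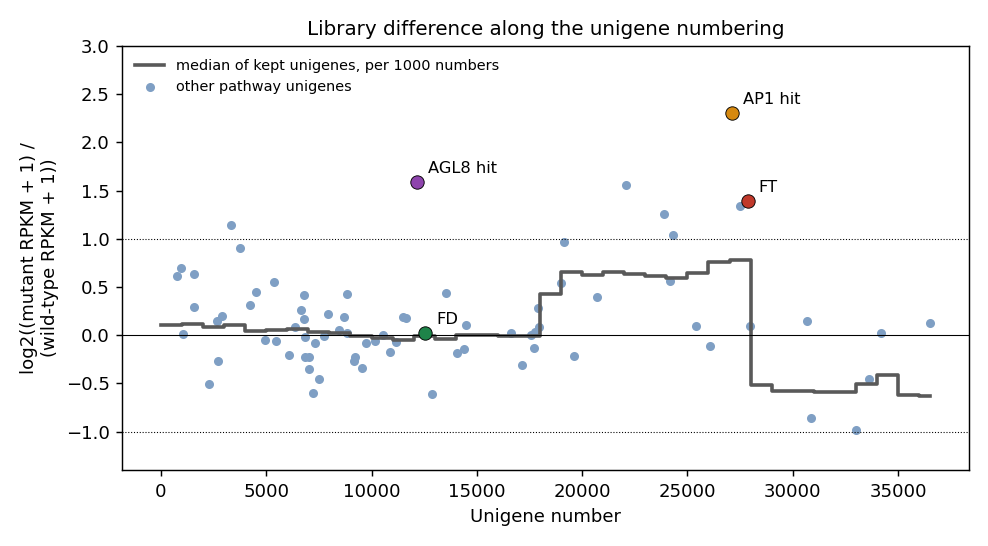
log2 ratio of mutant to wild-type RPKM (pseudocount 1) against unigene number; the grey steps are medians of kept unigenes per 1000 numbers, points are unigenes of the 8 florigen pathway lists and dotted lines mark 2-fold. FT (1.40) and the AP1 hit (2.31) sit where the steps are raised, whereas FD (0.03) and the AGL8 hit (1.58) sit where they are near 0.

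The other annotation columns add little on either member. A second protein annotation, headed Nr, paired FT with a human PEBP-like protein at an E-value of 9e-25, weaker than its Swiss-Prot hit (2e-69). PEBP is the phosphatidylethanolamine-binding family to which FT belongs. The same annotation paired FD with a human putative DNA-binding protein at 8e-07, also weaker than its Swiss-Prot hit (2e-34). FD carried the Gene Ontology terms for DNA binding, cellular process and intracellular membrane-bounded organelle, and FT carried none. Neither had a COG or KEGG entry. The search for best hits to the FT/TFL1 family, which holds TFL1, the antagonist of FT at the apex, matched 1 unigene, FT itself.

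Other genes of the pathway were taken from 8 lists covering 78 kept unigenes, FT and FD included, chosen with earlier results of these data known. In the mutant, 8 of these (10.3%) were 2-fold higher or more and 0 were 2-fold lower, against 8.61% and 5.31% of all kept unigenes. With a pseudocount of 0.1 the counts were 10 and 2, and with the median ratio set to 0 they were 7 and 1. Their median log2 ratio was 0.07, beside 0.05 over all kept unigenes. By number, 6 of the 14 members numbered from 18000 up to 28000 were 2-fold higher, as were 2 of 58 below 18000 and 0 of 6 from 28000 upward.

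The 14-3-3 proteins, which bridge FT and FD, were in sum far more abundant than either partner and differed little between libraries. Single unigenes ran from 3.69 to 285 RPKM in the mutant and from 3.24 to 290 RPKM in the wild type. The lowest (Unigene30693) lay below FD in both libraries. Of the 16 unigenes, 0 passed 2-fold in either direction and 9 had a positive ratio, with a median of 0.04. Their summed level was 2176 RPKM in the mutant and 2243 RPKM in the wild type, that is, 292 and 307 times the level of FD. Several can be pieces of 1 transcript, so these are sums over unigenes. The hit to tomato 14-3-3 protein 10 (Unigene7514) was 1.37-fold higher in the wild type (1.27 to 1.48, 1080 reads against 1473 in mutant and wild type). Hits to tomato 14-3-3 protein 6 (Unigene5381, 131 against 88) and tobacco protein C (Unigene6800, 372 against 277) were 1.48-fold (1.12 to 1.96) and 1.34-fold (1.14 to 1.57) higher in the mutant. The other members ran between these.

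FD had the lowest level, in RPKM, of the 8 unigenes of its wider family, the group A bZIP factors, which also relay abscisic acid signals. The family ranged from 7.47 to 149 RPKM in the mutant and from 7.31 to 190 RPKM in the wild type, with a median log2 ratio of 0.06 and 0 members past 2-fold. The member with the largest ratio in size was ABSCISIC ACID-INSENSITIVE 5-like protein 7 (Unigene7021), with 2089 reads in the mutant and 2651 in the wild type, 1.27-fold higher in the wild type (1.20 to 1.35). ABI5-like 2 (Unigene8670, 628 against 545) and ABI5-like 5 (Unigene11659, 1367 against 1202) were 1.15-fold (1.02 to 1.29) and 1.13-fold (1.05 to 1.22) higher in the mutant. Calcium-dependent kinases of the kinds reported to phosphorylate FD in Arabidopsis had 4 unigenes with a median of −0.06 and 0 past 2-fold. CPK4 (Unigene4231) had 513 reads against 407, 1.26-fold higher in the mutant (1.10 to 1.43). Hits to CPK33 had 122 against 130 (Unigene9749) and 109 against 114 reads (Unigene10151), with intervals that included 1.

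Upstream of FT, the photoperiod regulators were 27 unigenes with a median log2 ratio of 0.03, of which 2 were 2-fold higher in the mutant and 0 lower. Over all kept unigenes the shares were 8.61% higher and 5.31% lower. CONSTANS itself, the activator of FT in long days, had only a weak hit (Unigene11473, E-value 2e-07) at 49 reads in the mutant and 42 in the wild type, 1.16-fold with an interval of 0.754 to 1.80. It is named outside the rule, after its values were seen. The members past 2-fold were weak hits to CONSTANS-LIKE 1 (Unigene22063, 35 against 9 reads, 3.87-fold, 1.82 to 9.16) and CONSTANS-LIKE 14 (Unigene27492, 21 against 6, 3.49-fold, 1.36 to 10.6). The neighbours of both in number had raised medians of 0.69 and 0.77. In the other direction, DOF3.3 (Unigene33003), known in Arabidopsis as a cycling DOF factor that represses CONSTANS and FT, had 25 reads against 64 and was 2.57-fold higher in the wild type (1.60 to 4.26). Its log2 ratio with the pseudocount was −0.98, and its neighbours had a median of −0.56. Summed over the 3 DOF3.3 unigenes, the reads were 460 and 587, 1.28-fold higher in the wild type (1.13 to 1.45).

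Repressors of FT gave 9 unigenes, of which 7 were kept and 0 passed 2-fold, with a median of 0.01. SVP, a MADS-box protein that represses FT, stood at 12.5 RPKM in the mutant and 7.69 RPKM in the wild type (Unigene1579). Its 152 reads against 93 made it 1.63-fold higher in the mutant (1.25 to 2.13). APETALA 2 unigenes summed to 525 reads in the mutant and 735 in the wild type, 1.41-fold higher in the wild type (1.25 to 1.58). They did not all lean the same way. Unigene7234 (273 against 415) and Unigene12861 (170 against 264) were higher in the wild type. Unigene20726 (72 against 50) and Unigene33328 (10 against 6, not kept) had more reads in the mutant, with intervals that included 1. The hit to TOE3, an APETALA 2 relative, had 4 reads against 1 and allows no direction. RAV2, known in Arabidopsis as TEMPRANILLO 2, is a direct repressor of FT. Its hits stood at 6 against 1 reads (Unigene24342, not kept) and 23 against 37 (Unigene33611, 1.55 RPKM in the mutant and 2.50 RPKM in the wild type), and summed to 29 against 38 with an interval of 0.452 to 1.26 for the mutant-over-wild-type fold. They were named after their values were seen. Candidates for FT transport were 5 unigenes closest to animal multiple C2 domain proteins, the family of Arabidopsis FT-INTERACTING PROTEIN 1. Their log2 ratios ran from −0.34 to 0.44, with a median of 0.02, and 0 passed 2-fold.

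Targets of the FT-FD complex were the pathway list with the highest median among the lists of more than 1 unigene. Of its 10 unigenes, 5 exceeded 2-fold toward the mutant, 0 were lower and 9 had a positive ratio, with a median of 0.80. Over all kept unigenes, 8.61% were 2-fold higher in the mutant and 5.31% lower. Apart from the AGL8 hit, those past 2-fold had few reads: 12 against 0 (AP1), 22 against 8 (SOC1), and 11 against 3 and 14 against 5 (SEPALLATA 1). Among kept unigenes with 10 to 29 reads over both libraries, percentile 95 of the ratio was 1.61. The AP1 hit, at 2.31, lay above it, and the SEPALLATA 1 hits, at 1.25 and 1.04, lay below. The SOC1 hit falls in the range of 30 to 99 reads, where percentile 95 was 1.25, and its ratio was 1.14. Of the 10, 6 are numbered from 18000 up to 28000, where 28.7% of all kept unigenes passed 2-fold toward the mutant, and these 6 hold 3 of the 5. The unigene closest to potato AGL8, a FRUITFULL relative, had 276 reads in the mutant and 85 in the wild type, 3.23-fold higher (2.53 to 4.17, Unigene12163). Its neighbours in number had a median ratio of −0.01, and 2% of them passed 2-fold toward the mutant, so the raised stretch of numbers does not hold this unigene. Its level was 27.6 RPKM in the mutant and 8.54 RPKM in the wild type. The AP1 hit (Unigene27120), with 12 reads against 0, lies in the raised stretch, where the median ratio of its neighbours was 0.76 and 33.7% passed 2-fold toward the mutant. With a floor of 3 reads in place of 0 in the wild-type library, its fold was 3.98, which is not a lower bound. The exact lower limit of the interval was 2.77. The 4 hits to SOC1, an integrator of flowering signals, summed to 40 reads against 22, 1.81-fold higher in the mutant (1.05 to 3.20). Unigene3347 held 22 against 8 of these reads. The other hits had 8 against 6 (Unigene1570), 6 against 3 (Unigene19004) and 4 against 5 (Unigene19612), with intervals that included 1. Unigene19004 and Unigene19612 lie in the raised stretch, where their neighbours had medians of 0.63 and 0.66. A SEPALLATA 1 hit (Unigene23896) had 11 reads against 3, and both hits summed to 25 against 8, 3.11-fold higher (1.36 to 7.98). For each hit alone the interval included 1 (0.965 to 20.4 for Unigene23896 and 0.949 to 9.89 for Unigene24321). Both lie in the raised stretch, where their neighbours had medians of 0.62 and 0.65 and 26.1% and 25.9% passed 2-fold toward the mutant. SPL4, a target that marks the phase change to flowering, had 162 against 161 reads (Unigene17573, named after its values were seen).

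**Figure D4:**
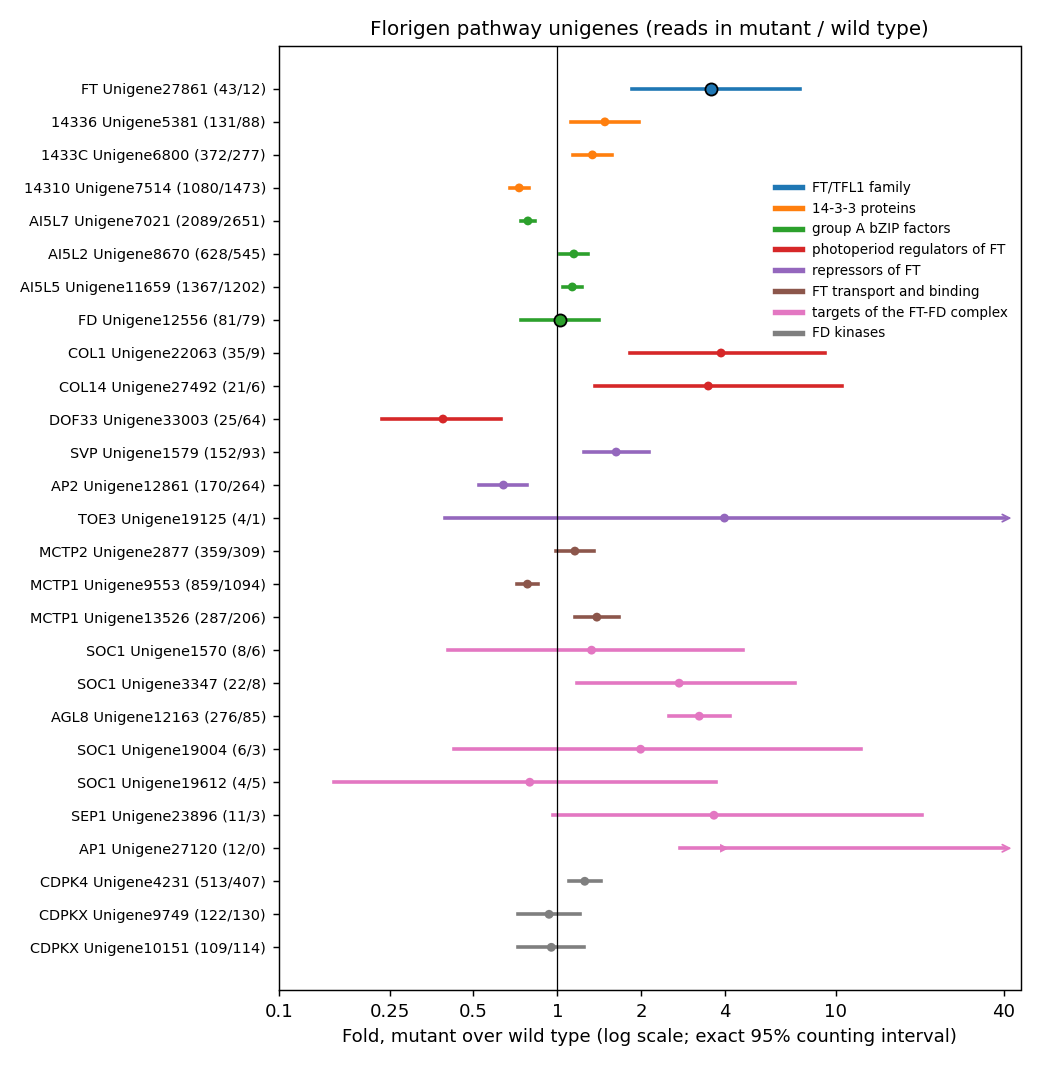
Fold of mutant over wild type (log scale) from raw reads and library totals for FT, FD and the named unigenes of the 8 pathway lists, coloured by list; lines are exact 95% counting intervals, arrows mark intervals beyond the axis and the triangle is a fold against a floor of 3 reads. FT (3.57), AGL8 (3.23) and the AP1 hit lie right of 1 with their intervals, and FD (1.02) lies at 1.

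Markers of the tissues in the buds were measured beside these values. SHOOT MERISTEMLESS, which marks the shoot apex, was present in both libraries, with 137 reads in the mutant and 171 in the wild type over 2 unigenes. Of the other 6 apex entries matched, 3 had counting intervals above 1 and 3 had intervals that included 1. Above 1, AINTEGUMENTA had 362 reads against 195 (1.85-fold, 1.55 to 2.21), YABBY 1 had 75 against 43 (1.74-fold, 1.18 to 2.59) and CUP-SHAPED COTYLEDON 1 had 58 against 36 (1.60-fold, 1.04 to 2.50). Hits to CLAVATA 1, 18 unigenes, had 2908 against 2790 (1.04-fold, 0.985 to 1.09), CUP-SHAPED COTYLEDON 2 had 69 against 62 and ATH1 had 11 against 6. The 31 shoot apex unigenes, 28 of them kept, had a median log2 ratio of 0.32, with 2 past 2-fold toward the mutant and 3 toward the wild type. Over all kept unigenes, the background for each marker list, 8.61% were 2-fold higher in the mutant and 5.31% lower. The apex unigenes summed to 181 RPKM in the mutant and 154 RPKM in the wild type, and their summed reads gave a fold of 1.09 (1.04 to 1.14). The CLAVATA 1 hits held 2908 of the 3620 summed reads in the mutant and 2790 of the 3303 in the wild type. The summed fold therefore mainly follows that entry. The part of the apex markers in the FT result was not tested. SUC2, the sucrose transporter of companion cells where FT is made in Arabidopsis, had 2492 reads against 2361, a fold of 1.05 (0.993 to 1.11). The other phloem entries moved in both directions. Hits to PHLOEM PROTEIN 2-LIKE A1 (520 against 314, 1.65-fold) and A9 (1408 against 981, 1.43-fold) had intervals above 1. Hits to the transcription factor APL (4216 against 4609, a fold of 0.911) had an interval below 1. Hits to PHLOEM PROTEIN 2-LIKE A10 (199 against 219) had an interval that included 1. The part of the phloem markers in the FT result was not tested. The 26 phloem marker unigenes summed to 751 RPKM in the mutant and 710 RPKM in the wild type, and 0 of the 25 kept were 2-fold higher in the mutant and 2 were 2-fold lower. The 20 mesophyll markers, Rubisco small subunit and light-harvesting proteins, summed to 6969 RPKM and 7653 RPKM, with 0 past 2-fold. The 3 xylem marker unigenes, all hits to the cysteine proteinase XCP1, summed to 178 RPKM in the mutant and 65.9 RPKM in the wild type. Their summed reads gave a fold of 2.88 (2.68 to 3.09), with 1 unigene higher and 1 lower by 2-fold. The higher one (Unigene5337) held 2880 of the 2889 summed reads in the mutant and 955 of the 1000 in the wild type. The lower one (Unigene32725) had 4 reads against 33. The part of the xylem markers in the FT result was not tested. No value is given here for WUSCHEL, CLAVATA3, KNAT1 or the secondary wall cellulose synthases.

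The unigenes with the most similar pair of levels were found by Euclidean distance of log2(RPKM + 1) over the 2 libraries. Nearest to FT were hits to a fission yeast transporter (Unigene24762, 32 reads against 9, distance 0.0075), a receptor-like protein kinase (Unigene25995, 15 against 4, 0.037) and XRI1 (Unigene22774, 72 against 21, 0.045), a protein of meiosis and the response to X-rays. Nearest to FD were cyclic nucleotide-gated channel 17 (Unigene1428, 146 against 141, 0.0088), the ubiquitin ligase UPL4 (Unigene5078, 399 against 393, 0.013) and squalene monooxygenase (Unigene10597, 36 against 35, 0.016). A likeness over 2 libraries describes levels alone.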

How the data were processed

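Per the file headers, the authors deposited raw read counts per unigene, RPKM values and unigene length in bases (a further column, other) for 1 mutant and 1 wild-type library. The count columns summed to the totals in the header, and recomputed RPKM matched 100% of the deposited values within 1e-04. How the unigenes were assembled, and how reads were aligned and counted, is not given in the sources used here, so reads shared with near-identical copies are uncertain. Groups came from the source names in the labels.

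Unigenes were named from the deposited Swiss-Prot best hits (E-values of at most 1e-05). Folds were computed from counts and library totals with exact 95% Clopper-Pearson intervals, levels with exact 95% Poisson intervals, and a floor of 3 reads replaced a count of 0. Counts over many unigenes used RPKM with a pseudocount of 1, a minimum of 1 RPKM in at least 1 library and a 2-fold threshold. No count model or test was used, since each group has 1 library. Named were FT, FD, up to 3 unigenes per pathway list with the largest absolute ratio, AP1, AGL8, SOC1, and the 3 nearest in level to each member. The members, lists and tests were chosen with earlier results of these data known. Interval code was tested on simulated data. Alternatives were other pseudocounts, minimums, thresholds, scalings, depth ranges and number ranges. Python 3.11.15, scipy 1.17.1, pandas 2.3.3 and matplotlib 3.10.9 were used.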

Additional observations from a re-analysis of the deposited data

How the results depend on the processing

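FT stayed higher in the mutant library under all 7 alternatives, from 1.66-fold (pseudocount 5, outside the main counting interval) to 3.45-fold (median ratio set to 0). A pseudocount cannot reverse the direction of a difference, so those settings bear only on its size. Against its 200 neighbours in number, an alternative chosen after seeing the data, FT was 2.17-fold higher. That value and the one with the median ratio set to 0 take the median with the pseudocount and the FT fold without it. FD ran from 0.975 to 1.04 under its 7, and centring on the median, trimmed mean and upper quartile scaling put it below 1. The FT to FD ratio was 2.58 with a pseudocount. The 2948 unigenes 2-fold higher and 1818 lower became 4579 and 3165 with pseudocount 0.1, 280 and 92 with pseudocount 5, 1328 and 597 at a minimum RPKM of 5, 249 and 138 at 4-fold, and 6768 and 4916 by the counting interval. Fewer unigenes entered at 30 to 99 reads (710 and 349), from 100 up to 300 reads (209 and 67), within 500 numbers of FT (212 and 51) or FD (11 and 7) and among the 200 nearest to FT (60 and 1) or FD (4 and 0). The 8 pathway unigenes past 2-fold became 1 with pseudocount 5, 5 at E-values of at most 1e-10 and 4 with at least 30 reads. They became 12 with pseudocount 0.1 (10 higher and 2 lower) and stayed 8 in number with the median ratio set to 0 (7 higher and 1 lower), so the count of 0 lower did not hold under either. With 12 FT reads in the wild-type library, counting error limits the FT fold. No paired analysis was possible because each group holds 1 library.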
